A study of Homo sapiens with 27 samples.

Results

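The genes described here are 10 regulators and markers of epithelial-mesenchymal transition: the transcription factors SNAI1, SNAI2, ZEB1, ZEB2 and TWIST1, the cadherins CDH1 and CDH2, the intermediate filament gene VIM, and the splicing regulators ESRP1 and ESRP2. They were chosen by name, as the entries of the deposited gene-level count table that carry these symbols. The table held 36536 genes once entries of the same symbol were summed, and 15575 of these had enough counts to be tested. All 10 genes were present in the table with 1 entry each, and all 10 passed the filter on low counts.

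MCF10A, the source of all RNA here, is an immortalised line of normal human breast epithelium that does not form tumours. All 9 groups came from cells grown with 20 ng/ml epidermal growth factor (EGF), horse serum, hydrocortisone, cholera toxin and insulin, seeded on collagen-coated plates and then kept without growth factors for 18 h. The ligands were EGF, OSM (oncostatin M, which signals through gp130 receptors) and TGFB (transforming growth factor beta). Each was used at 10 ng/ml, singly, in every pair or with both others, and RNA was collected at 24 h. The remaining groups were a vehicle group labelled PBS and an untreated group labelled T0. Each group had 3 libraries, 27 in all. The labels number the replicates but do not say whether they came from separate cultures, so p-values measure the spread between these libraries, which may be technical. All libraries come from a single cell line, and growth of every group in EGF before the ligands is part of the model.

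In epithelial-mesenchymal transition, epithelial cells loosen their junctions and take up a migratory, mesenchymal state. SNAIL, ZEB and TWIST proteins are the transcription factors best known to drive it, and SNAIL and ZEB proteins repress CDH1 (E-cadherin) through E-box sequences in its promoter. Loss of CDH1 with gain of CDH2 (N-cadherin), the cadherin switch, and a rise of vimentin are its textbook markers, while ESRP1 and ESRP2 keep the epithelial splice forms of genes such as CD44 and FGFR2. TGFB acts through SMAD proteins and is the ligand most used to induce the programme in cultured mammary cells.

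Promoter sequence is shown for ZEB1 and ZEB2, paralogues whose levels moved in opposite directions, and for CDH2. They are among the 4 of the 10 genes with windows used here, which do not include SNAI1 or CDH1. The windows are 300 bases long, span the annotated start site nearest to that of the MANE transcript (the reference transcript agreed by RefSeq and Ensembl), and come from RefSeq on GRCh38.p14. They are given 5′ to 3′ on the strand of the gene, and capitals mark matches to either motif searched on both strands. The first is the E-box CAGGTG bound by SNAIL and ZEB proteins, which appears as CACCTG when it lies on the opposite strand. The second is the short SMAD-binding element CAGAC, which appears as GTCTG when it lies on the opposite strand. The ZEB1 window is chr10:31318966-31319265 on the plus strand, the ZEB2 window is chr2:144520070-144520369 on the minus strand, and the CDH2 window is chr18:28177081-28177380 on the minus strand.
ZEB1: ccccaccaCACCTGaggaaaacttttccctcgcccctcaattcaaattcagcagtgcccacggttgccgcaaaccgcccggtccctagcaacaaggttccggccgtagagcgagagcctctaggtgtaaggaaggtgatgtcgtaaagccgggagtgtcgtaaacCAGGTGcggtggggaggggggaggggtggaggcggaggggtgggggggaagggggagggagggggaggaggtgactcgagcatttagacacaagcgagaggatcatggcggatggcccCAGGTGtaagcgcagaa
ZEB2: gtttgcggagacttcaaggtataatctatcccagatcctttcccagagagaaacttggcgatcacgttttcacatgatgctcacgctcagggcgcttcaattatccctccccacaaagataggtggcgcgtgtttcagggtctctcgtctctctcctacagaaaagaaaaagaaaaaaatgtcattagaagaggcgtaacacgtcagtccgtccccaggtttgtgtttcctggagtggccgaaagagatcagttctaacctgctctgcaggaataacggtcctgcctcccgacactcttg
CDH2: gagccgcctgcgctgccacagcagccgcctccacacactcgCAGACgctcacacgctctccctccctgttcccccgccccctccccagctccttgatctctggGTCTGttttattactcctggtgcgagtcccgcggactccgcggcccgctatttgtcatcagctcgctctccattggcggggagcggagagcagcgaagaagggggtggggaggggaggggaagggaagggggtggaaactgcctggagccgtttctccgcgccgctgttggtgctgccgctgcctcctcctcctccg
The ZEB1 window held 3 E-boxes, 242 and 85 bases upstream of the start and 33 bases downstream of it. At least 3 E-boxes were found in 0.635% and at least 1 in 20.6% of the 35116 promoter windows of the same length. ZEB1 had 7 windows at its annotated start sites, of which 2 held an E-box and 3 held CAGAC. The window shown held the most E-boxes of these, and ZEB2 had only 1 window. The ZEB2 window, of the paralogous gene, held neither motif. The CDH2 window held CAGAC in both orientations, 209 and 147 bases upstream, and 12.8% of all windows held at least 2 such matches. The VIM window (chr10:17227991-17228290, plus strand) held neither motif, and windows of the other 6 genes were not analysed here. A match shows that these letters are present, not that a protein binds there.

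Library totals ranged from 30143162 to 52947078 counts. Levels are counts per 1000000 (CPM) after TMM scaling of the totals, with factors from 0.867 to 1.12. Of the markers of the labelled cell type, 10 of 10 were tested, with a summed level of 14361 to 41957 CPM per library. The basal keratins KRT5, KRT14 and KRT17 were abundant throughout. EPCAM, a luminal marker, was low at 2.72 to 18.6 CPM. The luminal keratins KRT8 (128 to 714 CPM) and KRT18 (109 to 430 CPM) were not low. Of the markers of other cell types, 5 of 9 for fibroblasts, 4 of 6 for endothelial cells and 3 of 6 for leukocytes passed the filter, and their summed levels per library spanned 13.1 to 214 CPM, 1.27 to 35.3 CPM and 26.2 to 119 CPM. None was at 0 in all libraries. The highest count in any library was 2 for COL3A1, 4 for THY1, 6 for CDH5 and 10 for PTPRC, whereas COL1A1 reached 118 CPM, DCN 103 CPM, CD14 79.3 CPM and KDR 31.3 CPM. Mitochondrially encoded genes took 2.98% ± 0.12 (SD, n = 3) of counts in PBS and 1.30% ± 0.12 (SD, n = 3) with all 3 ligands, and whether this share bears on the results was not tested. In bulk RNA, a change in the share of cells that express a gene and a change in its RNA per cell cannot be told apart.

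Between genes, levels were compared per kilobase of the MANE transcript. In PBS the epithelial members were abundant, with CDH1 at 107 CPM per kilobase, ESRP1 at 32.5 and ESRP2 at 20.5, and 2 genes counted as mesenchymal were also abundant, VIM at 194 and SNAI2 at 47.3. The other transcription factors and N-cadherin were low, with TWIST1 at 10.3 CPM per kilobase, ZEB2 at 2.37, CDH2 at 0.749, ZEB1 at 0.398 and SNAI1 at 0.107. With all 3 ligands VIM stood at 904 CPM per kilobase, CDH1 at 94.4, SNAI1 at 30.7 and CDH2 at 14.4. In that group SNAI2 stood at 64.1, ESRP1 at 17.1 and ESRP2 at 16.5. VIM, CDH1 and SNAI2 thus kept the top of the order, while SNAI1, the lowest in PBS, stood above ESRP1 and ESRP2. CDH1 stayed above CDH2 in every library.

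**Figure D1:**
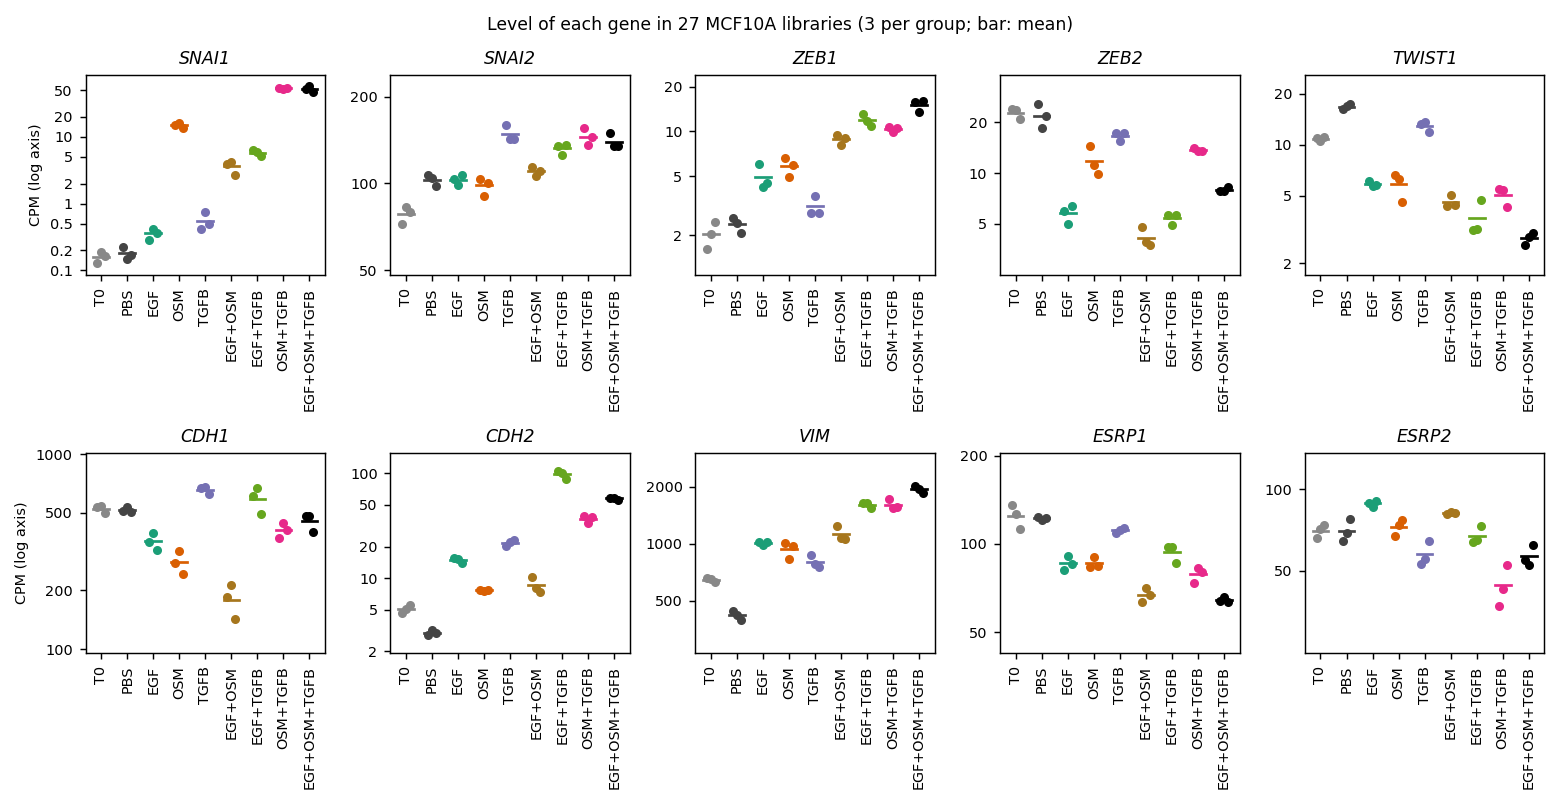
Level of each of the 10 genes in CPM (vertical log axis, with its own range in each panel) in the 9 groups along the horizontal axis. Each point is 1 library and each bar the mean of 3. SNAI1 spans 0.128 to 57.1 CPM and CDH2 2.85 to 105 CPM, whereas SNAI2, ESRP1 and ESRP2 stay within a range of about 2-fold between group means.

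SNAI1 (SNAIL, ENSG00000124216, chr20:49982980-49988886, plus strand, 3 exons), a zinc-finger repressor of CDH1, had the widest span of the 10 genes, with group means that differed by up to 332-fold. In PBS it was at 0.225, 0.151 and 0.171 CPM, and at T0 at 0.128, 0.189 and 0.163 CPM. These libraries held 6 to 10 counts of it, so its level without ligand is known only roughly. EGF alone gave 0.289, 0.419 and 0.366 CPM and TGFB alone 0.418, 0.744 and 0.491 CPM, both groups entirely above PBS and overlapping each other. OSM alone gave 15.2, 16.0 and 13.5 CPM, far above either. Its log2 fold change against PBS was 6.34 ± 0.20 (SE; adjusted p = 2.95e-19, edgeR quasi-likelihood test), an 81.1-fold rise. The rise with TGFB alone was 1.61 ± 0.33 on the log2 scale (adjusted p = 0.000405, edgeR) and that with EGF alone 0.98 ± 0.36 (adjusted p = 0.0161, edgeR). The EGF call was lost without PBS replicate 2 or EGF replicate 2, with values of 0.84 to 0.85 and adjusted p of 0.066 to 0.072.

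In combinations, SNAI1 did not follow the order of the single ligands. With EGF+TGFB it reached 6.43, 5.83 and 5.11 CPM, above both single ligands in every library. With EGF+OSM it was at 3.90, 4.24 and 2.73 CPM, below all 3 OSM libraries. With OSM+TGFB it reached 53.6, 51.3 and 54.4 CPM, and with all 3 ligands 52.6, 57.1 and 47.5 CPM, and these 2 groups overlapped. EGF thus lowered SNAI1 when added to OSM, by 2.04 ± 0.12 on the log2 scale (adjusted p = 1.17e-12, edgeR), and raised it when added to TGFB, by 3.38 ± 0.18 (adjusted p = 1.59e-14). When EGF was added to OSM+TGFB the change was -0.02 ± 0.10, with a 95% interval of -0.23 to 0.19. The difference between the EGF effect with TGFB and that with OSM was 5.42 ± 0.22 on the log2 scale (adjusted p = 1.03e-15, edgeR). The EGF+OSM level lay 3.02 ± 0.38 below the sum of the 2 single-ligand log2 fold changes (adjusted p = 3.92e-07), and the EGF+TGFB level lay 2.40 ± 0.46 above it (adjusted p = 0.000284). For OSM+TGFB the departure from the sum was 0.23 ± 0.41 (95% interval -0.63 to 1.08), so that pair was not distinguishable from additivity on the log2 scale at this depth.

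SNAI2 (SLUG, ENSG00000019549, chr8:48917598-48921740, minus strand), the paralogue of SNAI1 that basal mammary epithelium normally expresses, behaved differently. It ran from 72.1 to 82.9 CPM at T0, from 98.0 to 107 CPM in PBS, from 99.0 to 107 CPM with EGF and from 90.8 to 104 CPM with OSM. The PBS, EGF and OSM ranges overlapped, and neither EGF (0.00 ± 0.06) nor OSM (-0.07 ± 0.06) passed the test against PBS. All 4 groups that received TGFB were higher, at 142 to 159 CPM with TGFB alone, 125 to 136 CPM with EGF+TGFB, 136 to 155 CPM with OSM+TGFB and 135 to 150 CPM with all 3. The rise with TGFB alone was 0.52 ± 0.06 on the log2 scale (adjusted p = 3.86e-07, edgeR). SNAI2 moved by less than 2-fold between any groups, and its level per kilobase was above that of SNAI1 in PBS and with all 3 ligands.

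ZEB1 (ENSG00000148516, chr10:31318495-31529814, plus strand, 9 exons), a zinc-finger homeobox repressor of epithelial genes, was low without ligand and was highest with all ligands together. Its libraries gave 2.60, 2.42 and 2.08 CPM in PBS, 6.05, 4.25 and 4.49 with EGF, 6.63, 4.95 and 5.94 with OSM, and 2.84, 3.70 and 2.84 with TGFB. The EGF and OSM groups overlapped, and the TGFB group lay entirely above PBS by a small margin. EGF (1.06 ± 0.16 on the log2 scale) and OSM (1.30 ± 0.16) passed the test, while TGFB alone did not (0.41 ± 0.16, adjusted p = 0.0555, edgeR). It passed without TGFB replicate 3, with 0.47 and an adjusted p of 0.04995. With the replicate number added to the model it also passed (0.41, adjusted p = 0.039, edgeR). The pairs reached 8.10 to 9.51 CPM with EGF+OSM, 10.9 to 13.1 CPM with EGF+TGFB and 9.91 to 10.6 CPM with OSM+TGFB. All 3 ligands gave 15.8, 13.5 and 16.1 CPM, above every other library and 6.39-fold above PBS. The EGF+TGFB level exceeded the sum of the single-ligand changes by 0.87 ± 0.22 (adjusted p = 0.00336), whereas the departures of EGF+OSM (-0.45 ± 0.21), OSM+TGFB (0.43 ± 0.22) and all 3 (-0.09 ± 0.31) did not pass the test. The first of these passed without OSM replicate 2 (-0.56, adjusted p = 0.042).

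ZEB2 (SIP1, ENSG00000169554, chr2:144364364-144521057, minus strand, 10 exons), the paralogue of ZEB1 with the same class of DNA-binding domains, moved the other way. It was at 25.7, 18.4 and 21.8 CPM in PBS and fell to 5.99, 4.97 and 6.41 CPM with EGF, with no overlap. OSM gave 14.5, 11.2 and 9.93 CPM and TGFB 17.4, 15.5 and 17.2 CPM, so EGF was the single ligand with the lowest level. The log2 fold changes against PBS were -1.92 ± 0.13 for EGF, -0.89 ± 0.12 for OSM and -0.40 ± 0.12 for TGFB (adjusted p = 5.9e-13, 4.77e-07 and 0.00988, edgeR). The TGFB call was lost without PBS replicate 1 or TGFB replicate 2, at -0.34 to -0.27 with adjusted p of 0.056 to 0.10. The lowest level of all was with EGF+OSM, at 4.79, 3.91 and 3.72 CPM. Adding TGFB to that pair brought ZEB2 back up to 7.78, 7.84 and 8.27 CPM, a rise of 0.95 ± 0.14 (adjusted p = 1.69e-06). The effect of TGFB therefore changed sign with its background, and the difference between the effect with EGF+OSM and the effect alone was 1.34 ± 0.18 (adjusted p = 1.84e-06, edgeR). OSM likewise lowered ZEB2 alone and raised it by 0.57 ± 0.14 when added to EGF+TGFB (4.92 to 5.64 CPM), a difference of 1.45 ± 0.18 (adjusted p = 3.22e-07).

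TWIST1 (ENSG00000122691, chr7:19020991-19117636, minus strand), a basic helix-loop-helix factor of mesoderm that is often induced in invasive carcinoma, was highest in PBS. Its PBS libraries were at 16.2, 17.0 and 17.4 CPM, its T0 libraries at 10.9, 10.5 and 11.1 CPM. EGF gave 5.69 to 6.12 CPM, OSM 4.62 to 6.63 CPM and TGFB 11.9 to 13.7 CPM, all below every PBS library. EGF and OSM each lowered it by 1.52 ± 0.13 on the log2 scale, or 2.87-fold (adjusted p = 5.2e-11 and 9.64e-11, edgeR). With TGFB alone it fell by 0.38 ± 0.12 (adjusted p = 0.0167), a call lost without PBS replicate 3 or TGFB replicate 3 (-0.35 to -0.32, adjusted p 0.056 to 0.082). The lowest group was all 3 ligands, at 2.54, 2.86 and 3.01 CPM, or 6.03-fold below PBS. EGF+OSM (4.33 to 5.05 CPM) lay 1.17 ± 0.18 above the sum of its single-ligand changes (adjusted p = 1.32e-05), so the 2 reductions were less than additive.

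Of the 5 transcription factors, SNAI1 and ZEB1 rose and ZEB2 and TWIST1 fell in each of the 3 pairs and with all 3 ligands, and SNAI2 rose in each of these that contained TGFB. Across the 9 group means of log2 CPM, ZEB1 and TWIST1 ran in opposite order (Pearson r = -0.94, Spearman rho = -0.93), as did ZEB1 and ZEB2 less closely (r = -0.71, rho = -0.70). ZEB1 and SNAI1 ran in the same order (r = 0.87, rho = 0.87). These are descriptions over 9 points that share ligands and the same cells, with no test.

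**Figure D2:**
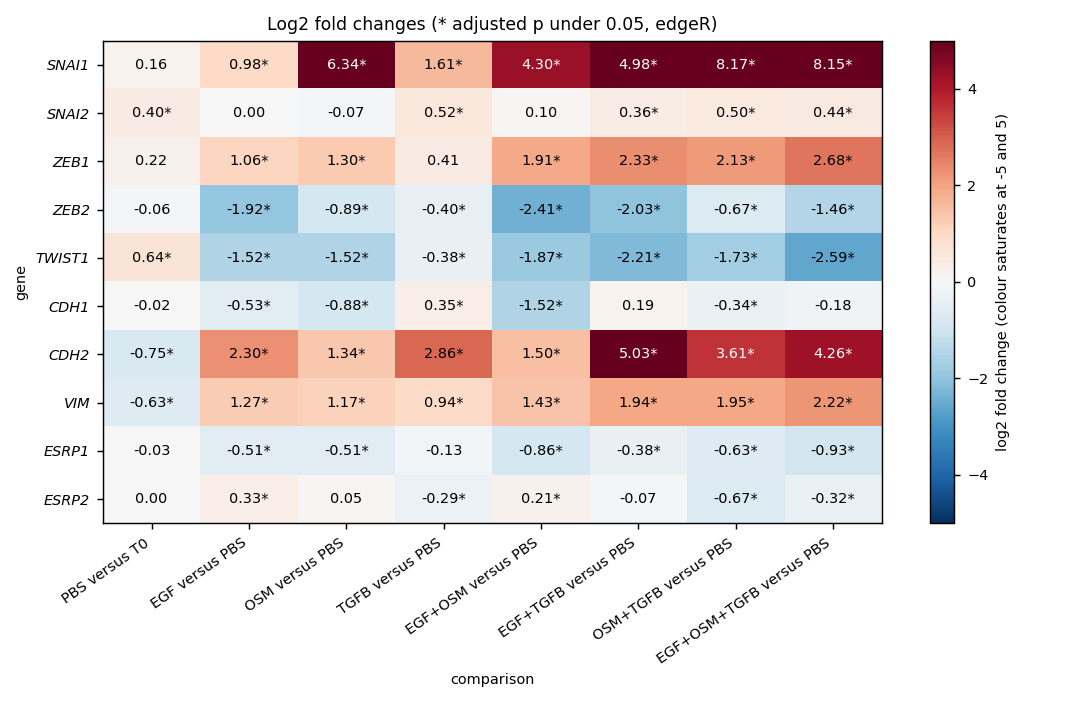
Log2 fold change of each gene (vertical axis) in PBS against T0 and in the 7 ligand groups against PBS (horizontal axis). Red is higher and blue lower in the group named first, colours saturate at -5 and 5, and an asterisk marks an adjusted p under 0.05. SNAI1, CDH2 and VIM are red in all 7 ligand groups and ZEB2 and TWIST1 blue in all 7, while the CDH1 values run from -1.52 with EGF+OSM to 0.35 with TGFB.

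CDH1 (E-cadherin, ENSG00000039068, chr16:68737292-68835537, plus strand, 16 exons), the adhesion molecule of epithelial junctions, was lowered by EGF and OSM and not by TGFB. It was at 511, 533 and 503 CPM in PBS, 356, 396 and 321 CPM with EGF, and 277, 319 and 243 CPM with OSM, with no overlap between these groups. With TGFB alone it was at 668, 676 and 623 CPM, above every PBS library. EGF lowered CDH1 by 0.53 ± 0.13 on the log2 scale (adjusted p = 0.000803, edgeR) and OSM by 0.88 ± 0.13 (adjusted p = 3.06e-06). The lowest group was EGF+OSM, with 184, 212 and 143 CPM, where CDH1 was 2.87-fold below PBS. This drop of 1.52 ± 0.13 was close to the sum of the single ligands, with a departure of -0.11 ± 0.18 (95% interval -0.49 to 0.27).

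Groups that received TGFB held more CDH1 than the matching group without it in each of the 4 backgrounds. EGF+TGFB gave 606, 669 and 491 CPM against 321 to 396 CPM with EGF, a rise of 0.72 ± 0.13 (adjusted p = 5.46e-05, edgeR). OSM+TGFB gave 372, 443 and 410 CPM against 243 to 319 CPM with OSM, a rise of 0.55 ± 0.13 (adjusted p = 0.00106). All 3 ligands gave 482, 483 and 397 CPM, all above the 143 to 212 CPM of EGF+OSM, with a rise of 1.34 ± 0.13 or 2.53-fold (adjusted p = 9.45e-09). The rise with TGFB alone was the smallest, 0.35 ± 0.13 (adjusted p = 0.0368), and the effect with EGF+OSM exceeded it by 0.99 ± 0.18 (adjusted p = 0.000124). That call with TGFB alone was lost without any 1 of PBS replicates 1, 2 or 3 or TGFB replicates 1 or 2 (0.33 to 0.37, adjusted p 0.060 to 0.099), with upper-quartile scaling (0.31, adjusted p = 0.058) and with no filter on low counts (0.33, adjusted p = 0.12). Against PBS, CDH1 with all 3 ligands was lower in every library but did not pass the test (-0.18 ± 0.13, 95% interval -0.45 to 0.08), and EGF+TGFB (0.19 ± 0.13, interval -0.07 to 0.46) overlapped PBS. With EGF+TGFB replicate 3 left out, that group passed at 0.33 (adjusted p = 0.026). With the replicate number added to the model, CDH1 passed with all 3 ligands (-0.19, adjusted p = 0.028, edgeR) and with EGF+TGFB (0.18, adjusted p = 0.036). The decrease with OSM+TGFB, 0.34 ± 0.13 below PBS (adjusted p = 0.0241), was lost without PBS replicate 2 or OSM+TGFB replicates 1 or 3 (-0.34 to -0.27, adjusted p 0.053 to 0.10).

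CDH2 (N-cadherin, ENSG00000170558, chr18:27932879-28177946, minus strand, 16 exons), the cadherin of neural and mesenchymal cells, rose in all 7 ligand groups. It was at 2.85, 3.17 and 3.01 CPM in PBS, at 20.4, 22.2 and 23.0 CPM with TGFB, at 15.5, 15.2 and 13.9 CPM with EGF and at 7.71, 7.52 and 7.72 CPM with OSM. None of these 4 groups overlapped another. The log2 fold changes against PBS were 2.86 ± 0.10 for TGFB, 2.30 ± 0.10 for EGF and 1.34 ± 0.11 for OSM (adjusted p = 1.25e-16, 7.82e-16 and 7.45e-11, edgeR). The highest level was not with all 3 ligands (58.6, 58.3 and 56.1 CPM) but with EGF+TGFB, at 105, 102 and 88.5 CPM, 32.7-fold above PBS. OSM+TGFB gave 38.8, 33.6 and 38.3 CPM, and EGF+OSM only 10.2, 8.03 and 7.43 CPM, below every library with EGF alone.

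OSM thus raised CDH2 where EGF was absent and lowered it where EGF was present. Alone it raised CDH2 by 1.34 ± 0.11 and with TGFB by 0.75 ± 0.08 (adjusted p = 2.3e-08, edgeR). Added to EGF it lowered CDH2 by 0.80 ± 0.09 (adjusted p = 1.39e-07), and added to EGF+TGFB by 0.77 ± 0.08 (adjusted p = 2.66e-08). The difference between the OSM effect with EGF and that alone was -2.14 ± 0.14 (adjusted p = 1.35e-11), which is also the departure of EGF+OSM from the sum of its single ligands. EGF+TGFB was additive on the log2 scale within its error, with a departure of -0.13 ± 0.13 (95% interval -0.41 to 0.15).

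The log2 ratio of CDH2 to CDH1 CPM, taken per library with 0.1 CPM added to each, describes the cadherin switch without a test. It was -7.37 ± 0.05 (SD, n = 3) in PBS, -4.90 ± 0.14 with TGFB, -4.57 ± 0.11 with EGF and -5.16 ± 0.21 with OSM. It stood at -4.37 ± 0.29 with EGF+OSM, -3.46 ± 0.23 with OSM+TGFB, -2.97 ± 0.13 with all 3 ligands and -2.57 ± 0.13 with EGF+TGFB (SD, n = 3 each). The groups with the highest ratios were therefore those with the most CDH2, not those with the least CDH1: EGF+OSM had the lowest CDH1 of all and a ratio near that of EGF alone. Over the 9 group means CDH1 and CDH2 did not run in opposite order (Pearson r = 0.28, Spearman rho = 0.23). CDH1 was also loosely related to the level of its textbook repressors, with r = -0.31 and rho = -0.23 for ZEB1 and r = -0.27 and rho = -0.30 for SNAI1. For ZEB2 (r = 0.55, rho = 0.48) and SNAI2 (r = 0.25, rho = 0.28) the sign was positive.

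**Figure D3:**
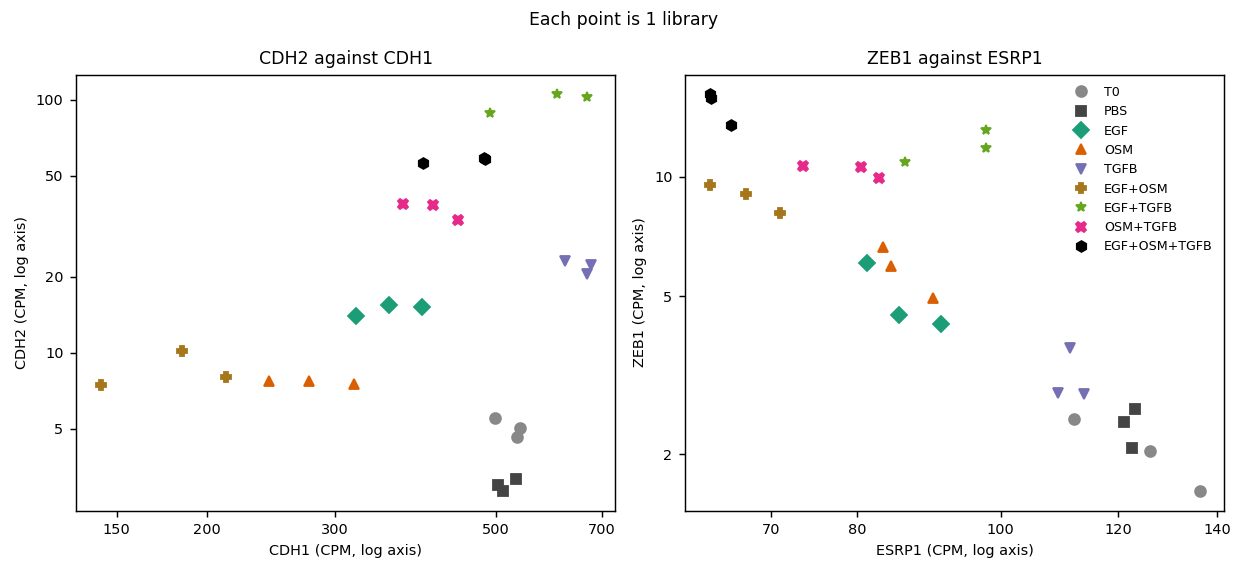
CDH2 against CDH1 (left) and ZEB1 against ESRP1 (right), in CPM on log axes, with 1 point per library and 1 marker shape per group. On the left EGF+OSM lies far to the left at 143 to 212 CPM of CDH1, and EGF+TGFB lies at the top with 88.5 to 105 CPM of CDH2 beside CDH1 of 491 to 669 CPM. On the right the 3 libraries with all ligands lie at the top left, with the highest ZEB1 and ESRP1 of 63.6 to 65.7 CPM.

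VIM (vimentin, ENSG00000026025, chr10:17228241-17237593, plus strand, 10 exons), the intermediate filament protein of mesenchymal cells and of many cultured epithelial lines, was already abundant in PBS at 443, 418 and 394 CPM. It reached 984 to 1025 CPM with EGF, 834 to 1010 CPM with OSM and 751 to 875 CPM with TGFB, all above T0 (625 to 656 CPM) and PBS. The log2 fold changes against PBS were 1.27 ± 0.07, 1.17 ± 0.07 and 0.94 ± 0.07 (adjusted p = 3.36e-14, 2.65e-13 and 6.93e-11, edgeR). All 3 ligands together gave 2023, 1951 and 1870 CPM, above every other library and 4.66-fold above PBS. EGF+OSM, at 1061 to 1248 CPM, fell short of the sum of its ligands by 1.01 ± 0.10 on the log2 scale (adjusted p = 1.01e-08). OSM added to EGF gave 0.16 ± 0.07, which did not pass the test (adjusted p = 0.0882). With the replicate number added to the model this change passed (0.15, adjusted p = 0.019, edgeR). TGFB raised VIM by 0.67 to 0.94 in all 4 backgrounds. The summed fibroblast markers, of which COL3A1 and THY1 were near 0, gave 50.1 to 59.4 CPM with all 3 ligands, 129 to 134 CPM in PBS and 204 to 214 CPM with TGFB alone. Between PBS and all 3 ligands DCN went from 91.6 to 12.1 CPM and COL1A1 from 38.7 to 40.7 CPM. Their part in the VIM values was not tested.

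ESRP1 (ENSG00000104413, chr8:94641074-94707466, plus strand, 16 exons), an RNA-binding protein that keeps epithelial splice forms, was lowered by EGF and by OSM. It was at 121 to 123 CPM in PBS, 81.3 to 91.1 CPM with EGF and 83.2 to 90.1 CPM with OSM. Each ligand lowered it by 0.51 ± 0.06 on the log2 scale (adjusted p = 6.1e-08 and 9.76e-08, edgeR). TGFB alone gave 109, 111 and 114 CPM, all below PBS, but the change of -0.13 ± 0.06 did not pass the test (adjusted p = 0.0995, 95% interval -0.26 to -0.00). With upper-quartile scaling it did (-0.17, adjusted p = 0.036). The lowest groups were EGF+OSM (63.6 to 70.9 CPM) and all 3 ligands (63.6 to 65.7 CPM), which overlapped and lay 1.82-fold and 1.90-fold below PBS. The EGF+OSM change differed from the sum of its ligands by 0.16 ± 0.09 (95% interval -0.03 to 0.34).

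ESRP2 (ENSG00000103067, chr16:68229033-68238102, minus strand, 15 exons), the paralogue with overlapping function, rose with EGF and fell with TGFB. It was at 64.6, 69.1 and 77.3 CPM in PBS, 89.2, 85.9 and 90.7 CPM with EGF, 67.1 to 76.9 CPM with OSM and 52.9, 55.3 and 64.1 CPM with TGFB. EGF libraries lay above and TGFB libraries below every PBS library, while OSM overlapped PBS. EGF raised ESRP2 by 0.33 ± 0.09 (adjusted p = 0.00291, edgeR), and TGFB lowered it by 0.29 ± 0.10 (adjusted p = 0.0183). The TGFB call was lost without PBS replicate 3, TGFB replicate 1 or TGFB replicate 2 (-0.27 to -0.22, adjusted p 0.072 to 0.12). The lowest group was OSM+TGFB, at 37.2, 42.8 and 52.4 CPM, with a drop of 0.67 ± 0.10 against PBS (adjusted p = 1.44e-06). Its departure from the sum of both ligands, -0.42 ± 0.14 (adjusted p = 0.0252), was lost without any 1 of 6 libraries (PBS replicates 1 and 2, OSM replicate 3, TGFB replicate 3, OSM+TGFB replicates 1 and 2; -0.41 to -0.31, adjusted p 0.053 to 0.085) and with no filter (-0.40, adjusted p = 0.061).

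The log2 ratio of ZEB1 to ESRP1, with 0.1 CPM added to each, rose from -5.64 ± 0.16 (SD, n = 3) in PBS to -2.09 ± 0.17 with all 3 ligands. It was -5.12 ± 0.22 with TGFB, -4.11 ± 0.34 with EGF and -3.86 ± 0.27 with OSM. The 3 pairs lay together, at -2.91 ± 0.19 with EGF+OSM, -2.97 ± 0.08 with EGF+TGFB and -2.91 ± 0.14 with OSM+TGFB. By this ratio TGFB alone stayed closest to PBS, whereas by the cadherin ratio it lay between OSM and EGF.

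Counted over the 10 genes, most moved in every ligand group, as did most genes tested where EGF or OSM was present. With EGF alone, 5 rose and 4 fell (9 of 10, beside 73.5% of the 15575 genes tested), and SNAI2 did not pass. With OSM alone, 4 rose and 4 fell (63.4% of all genes), with SNAI2 and ESRP2 not passing. With TGFB alone, 5 rose and 3 fell (35.6% of all genes), and ZEB1 and ESRP1 did not pass. With EGF+OSM, 5 rose and 4 fell (77.2%), and with EGF+TGFB, 5 rose and 3 fell (73.7%). OSM+TGFB raised 5 and lowered 5 (66%), and all 3 ligands raised 5 and lowered 4 (74.4%). The ESRP2 call with EGF+OSM (0.21 ± 0.09, adjusted p = 0.0426) was lost without PBS replicates 1 or 2 or any 1 of the EGF+OSM replicates 1, 2 and 3 (0.16 to 0.22, adjusted p 0.066 to 0.18), with upper-quartile scaling (0.13, adjusted p = 0.20) and with no filter (0.22, adjusted p = 0.062). The shares of members were thus near those of all genes wherever EGF was present and do not set the 10 genes apart. The count for TGFB alone fell from 8 to 5 without PBS replicate 3 or TGFB replicate 2, since 4 of its calls, CDH1, ESRP2, TWIST1 and ZEB2, were close to the threshold. The 7 comparisons share the 3 PBS libraries, so their values are given side by side and are not independent of each other.

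The 24 h that separate PBS from T0 moved 4 of the 10 genes (35.1% of all genes passed). SNAI2 was 0.40 ± 0.06 higher (adjusted p = 3.06e-05, edgeR) and TWIST1 0.64 ± 0.12 higher in PBS (adjusted p = 0.000187). CDH2 fell by 0.75 ± 0.11, from 4.64, 5.06 and 5.55 CPM at T0 (adjusted p = 1.11e-05), and VIM fell by 0.63 ± 0.07 (adjusted p = 1.72e-07). CDH1 (-0.02 ± 0.13), ESRP1 (-0.03 ± 0.06) and ESRP2 (0.00 ± 0.09) did not pass and had overlapping libraries. A fold change against PBS therefore starts from CDH2 and VIM levels below those at T0, and from SNAI2 and TWIST1 levels above them. TWIST1 with TGFB alone, at 11.9 to 13.7 CPM, lay below PBS but above every T0 library (10.5 to 11.1 CPM).

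Adding TGFB could be read in 4 comparisons that share no library. Against PBS the counts are those above. Added to EGF, TGFB raised 6 and lowered 2 (54.6% of all genes passed), added to OSM it raised 6 and lowered 1 (51.6%), and added to EGF+OSM it raised 7 and lowered 2 (61.1%). SNAI1, SNAI2, CDH1, CDH2 and VIM rose and ESRP2 fell in all 4. CDH2 rose by 2.27 to 2.86 on the log2 scale across the 4 backgrounds. SNAI1 rose by 1.61 ± 0.33 alone, 1.83 ± 0.11 with OSM, 4.0 ± 0.19 with EGF and 3.85 ± 0.12 with EGF+OSM, and the difference between the last and the effect alone was 2.25 ± 0.42 (adjusted p = 0.000109, edgeR). In that test of a difference, which 44.4% of all genes passed, 3 of the 10 genes had a larger effect with EGF+OSM (SNAI1, ZEB2 and CDH1) and 0 a smaller one. ESRP1 did not pass in any of the 4 comparisons, with values from -0.13 to 0.13. With upper-quartile scaling ESRP1 passed for TGFB alone (-0.17, adjusted p = 0.036, edgeR) and for TGFB added to OSM (-0.15, adjusted p = 0.044). For TGFB added to EGF (0.13 ± 0.06) it passed without EGF replicate 2 or EGF+TGFB replicate 3, at 0.17 to 0.22 with adjusted p of 0.0052 to 0.042. Of 10 SMAD target genes, 8 rose and 1 fell with TGFB alone (35.6% of all genes passed), for example TGM2 by 5.41 ± 0.22 and PMEPA1 by 3.36 ± 0.11. OSM alone raised 7 and lowered 1 of them (63.4% of all genes passed, list median 1.31, beside 2.25 with TGFB). EGF alone raised 5 and lowered 3 (73.5% of all genes passed, list median 0.61), a count near that share.

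**Figure D4:**
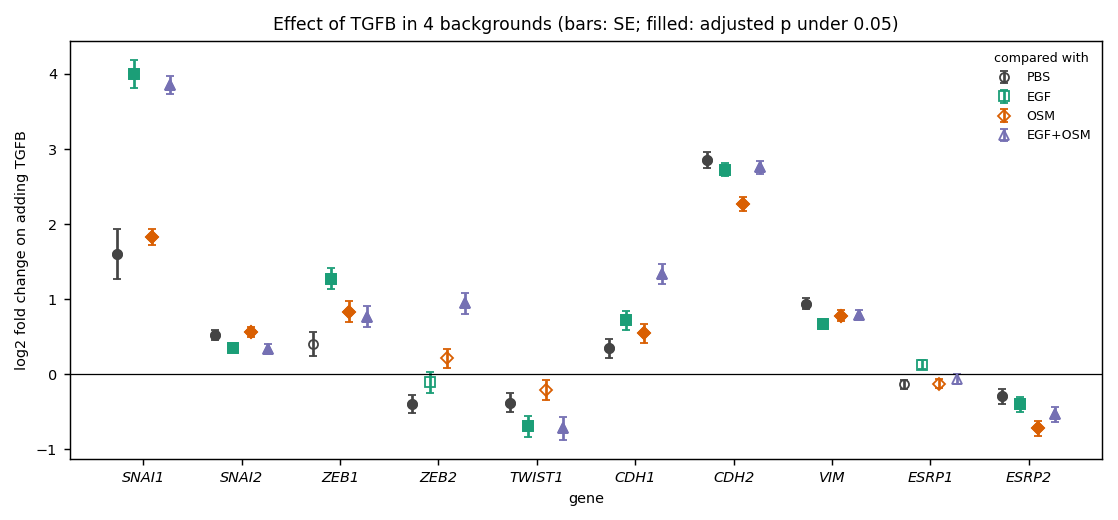
Log2 fold change on adding TGFB (vertical axis) for each gene (horizontal axis) in 4 backgrounds, given by marker shape and colour. Bars are standard errors and filled markers have an adjusted p under 0.05. The 4 CDH2 values lie between 2.27 and 2.86, the 4 CDH1 values are all above 0, and ZEB2 ranges from -0.40 with TGFB alone to 0.95 with EGF+OSM.

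Adding EGF lowered ZEB2 in all 4 backgrounds (-1.92 ± 0.13 alone, -1.52 ± 0.13 with OSM, -1.63 ± 0.13 with TGFB, -0.79 ± 0.13 with OSM+TGFB) and raised ZEB1 in all 4 (0.54 to 1.93). Added to OSM, EGF raised 3 and lowered 5 of the 10 genes (61.7% of all genes passed). Added to TGFB it raised 5 and lowered 4 (69.4%), and added to OSM+TGFB it raised 4 and lowered 3 (52.2%). Leaving out 1 library, the counts ran from 6 to 8 with OSM and from 6 to 9 with TGFB. With OSM, the TWIST1 call (-0.35, adjusted p = 0.0278, edgeR) was lost without any 1 of 4 libraries (adjusted p 0.085 to 0.15). With TGFB, the ESRP2 call was lost without any 1 of 3 libraries (adjusted p 0.091 to 0.17). The ESRP1 call with TGFB was lost without EGF+TGFB replicate 3 (adjusted p = 0.059). The EGF effect on CDH2 was 2.30 ± 0.10 alone and 2.17 ± 0.08 with TGFB, but 0.16 ± 0.10 with OSM (95% interval -0.05 to 0.37) and 0.64 ± 0.08 with OSM+TGFB. Without EGF+OSM replicate 3 the value with OSM was 0.25 and passed (adjusted p = 0.040, edgeR). In the test of the EGF effect with TGFB against that with OSM, 5 genes were higher and 2 lower (38.9% of all genes), the 5 being SNAI1, ZEB1, CDH1, CDH2 and VIM. SNAI2 was 1 of the 2, at 0.17 ± 0.06 with OSM and -0.16 ± 0.06 with TGFB (difference -0.33 ± 0.09, adjusted p = 0.00542). The first call was lost without OSM replicate 2 or EGF+OSM replicates 1 or 3 (0.11 to 0.17, adjusted p 0.059 to 0.18) and with upper-quartile scaling (0.14, adjusted p = 0.074). The second was lost without TGFB replicate 1 or EGF+TGFB replicates 2 or 3 (-0.14 to -0.11, adjusted p 0.10 to 0.18) and with no filter (-0.12, adjusted p = 0.14).

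Adding OSM raised SNAI1 in all 4 backgrounds, by 6.34 ± 0.20 alone, 6.57 ± 0.16 with TGFB, 3.32 ± 0.20 with EGF and 3.17 ± 0.12 with EGF+TGFB. It lowered CDH1 in all 4 (-0.88, -0.68, -0.99 and -0.37 in the same order) and ESRP1 in all 4 (-0.51, -0.50, -0.35 and -0.55). The last CDH1 value (adjusted p = 0.0321, edgeR) was lost without EGF+TGFB replicates 1 or 2 or the replicate 3 of all 3 ligands (-0.35 to -0.27, adjusted p 0.086 to 0.18). Added to EGF, OSM raised 2 and lowered 5 of the 10 genes (34.9% of all genes passed), added to TGFB it raised 4 and lowered 4 (56.6%), and added to EGF+TGFB it raised 3 and lowered 3 (26.4%). Leaving out 1 library, these counts ran from 5 to 7, 8 to 9 and 5 to 7 genes. With EGF, the TWIST1 call (-0.35, adjusted p = 0.0435, edgeR) was lost without any 1 of 5 libraries (adjusted p 0.069 to 0.13). The ZEB2 call with EGF was lost without EGF+OSM replicate 3 (-0.41, adjusted p = 0.053). The VIM call with EGF+TGFB was lost without EGF+TGFB replicate 3 (0.22, adjusted p = 0.052). In the test of the OSM effect with EGF+TGFB against that alone, 3 genes were higher and 4 lower (47.5% of all genes), the 4 being SNAI1, ZEB1, CDH2 and VIM.

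**Figure D5:**
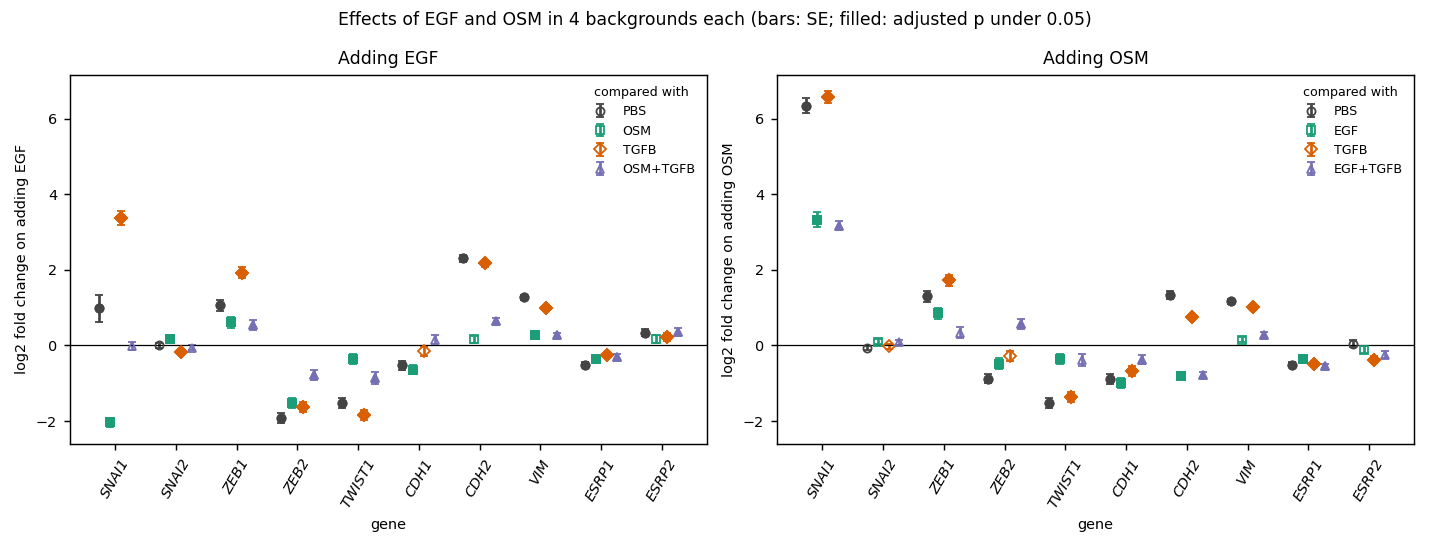
Log2 fold change on adding EGF (left) or OSM (right) for each gene, in 4 backgrounds given by marker shape and colour, with standard errors as bars and filled markers at an adjusted p under 0.05. On the left SNAI1 lies at -2.04 with OSM and at 3.38 with TGFB. On the right CDH2 lies above 0 alone and with TGFB and below 0 in both backgrounds that contain EGF.

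Departures from additivity were counted against the sum of the single-ligand log2 fold changes. For EGF+OSM, 1 gene lay above (TWIST1) and 3 below the sum (SNAI1, CDH2 and VIM), beside 38.7% of all genes. With EGF+TGFB, 3 lay above (SNAI1, ZEB1 and ESRP1) and 1 below (VIM), beside 29.8%, and for OSM+TGFB 1 lay above (ZEB2) and 2 below (CDH2 and ESRP2), beside 23.3%. For all 3 ligands, 3 lay above (ZEB2, TWIST1 and CDH1) and 2 below (CDH2 and VIM), beside 48%. CDH2 with all 3 ligands was 2.25 ± 0.21 below the sum (adjusted p = 4.35e-09, edgeR), and CDH1 was 0.88 ± 0.25 above it (adjusted p = 0.0061). The ESRP1 call for EGF+TGFB (0.26 ± 0.09, adjusted p = 0.0263) was lost without EGF replicates 1 or 3, TGFB replicate 1 or EGF+TGFB replicates 1 or 2 (0.22 to 0.26, adjusted p 0.053 to 0.079). The VIM call for EGF+TGFB (-0.27 ± 0.10, adjusted p = 0.0428) was lost without any 1 of 8 libraries (PBS 2 and 3, EGF 1 and 3, TGFB 1, EGF+TGFB 1, 2 and 3; -0.29 to -0.18, adjusted p 0.053 to 0.22), so the count for that pair ran from 2 to 5.

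Genes around the 10 were read from lists of the same pathways, by the number that passed in each direction. Beside these counts stand the shares of all genes that passed, 35.6% with TGFB alone and 74.4% with all 3 ligands, and a list with a share near them is not set apart by its count. Of 18 other transcription factors tied to the transition, 10 rose and 0 fell with TGFB alone, and 11 rose and 4 fell with all 3 ligands, a share near that of all genes. With all 3, ETS1 rose from 25.0 ± 2.0 to 257 ± 10.5 CPM (SD, n = 3 each), HMGA2 from 6.37 ± 0.80 to 63.0 ± 3.1 CPM and FOSL1 from 8.86 ± 1.08 to 58.7 ± 4.4 CPM. In the same comparison FOXQ1 fell from 19.4 ± 2.3 to 2.18 ± 0.16 CPM. SOX9 fell from 57.2 ± 4.0 to 15.1 ± 3.5 CPM and TCF4 from 36.6 ± 2.1 to 11.5 ± 0.79 CPM. Of 14 transcription factors that maintain epithelium, 3 rose and 5 fell with TGFB alone (list median log2 fold change -0.23, beside -0.01 over all genes), and 2 rose and 11 fell with all 3 ligands (list median -1.30, beside 0.00 over all genes). EHF, an epithelial ETS factor, fell from 306 ± 17.0 to 11.4 ± 3.2 CPM and its relative ELF3 from 226 ± 30.8 to 8.79 ± 3.75 CPM. TP63, the basal epithelial regulator, rose by 0.11 ± 0.05 on the log2 scale, from 114 ± 5.9 to 123 ± 1.7 CPM.

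Of 29 epithelial genes known as targets of ZEB and SNAIL repression, 6 rose and 3 fell with TGFB alone (list median -0.02, beside -0.01 over all genes), a share near the 35.6% of all genes. With EGF 4 rose and 21 fell (73.5% of all genes passed), and with OSM 4 rose and 20 fell (63.4%). Adding TGFB to EGF raised 13 and lowered 3 of them (54.6% of all genes passed), adding it to EGF+OSM raised 15 and lowered 6 (61.1%), and adding it to OSM raised 6 and lowered 9 (51.6%), while CDH1 rose in all of these. With all 3 ligands 5 rose and 20 fell (74.4%). TJP3, a tight-junction scaffold, fell from 48.8 ± 5.6 to 0.860 ± 0.465 CPM and ERBB3 from 140 ± 6.0 to 13.7 ± 2.6 CPM, while the keratins KRT18 (116 ± 7.6 to 389 ± 4.4 CPM) and KRT8 (262 ± 5.2 to 695 ± 32.7 CPM) rose. Of 11 other cadherins and catenins, 8 rose and 1 fell with TGFB alone (35.6% of all genes passed), CTNNB1 (beta-catenin) from 278 ± 9.9 to 511 ± 19.3 CPM, and CDH16 fell from 13.5 ± 3.9 to 4.61 ± 1.87 CPM.

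Of 29 mesenchymal effector genes, 24 rose and 0 fell with TGFB alone (list median 2.06, with 35.6% of all genes passing). With EGF 17 rose and 6 fell (73.5%), with OSM 15 rose and 8 fell (63.4%), and with all 3 ligands 23 rose and 4 fell (list median 3.70, with 74.4% of all genes passing). FN1 (fibronectin) rose from 132 ± 18.3 to 1964 ± 79.0 CPM with TGFB, and TNC (tenascin C) from 12.5 ± 2.1 to 3404 ± 46.7 CPM with all 3 ligands. LOX, which crosslinks collagen, fell from 303 ± 11.7 to 51.9 ± 9.4 CPM with all 3. When OSM was added to EGF, 4 of these genes rose and 11 fell (34.9% of all genes passed), and when EGF was added to OSM, 4 rose and 15 fell (61.7%), a comparison in which VIM rose by 0.26 ± 0.07 and CDH2 changed by 0.16 ± 0.10.

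Of 20 other splicing regulators, 7 rose and 4 fell with TGFB alone (35.6% of all genes passed) and 14 rose and 3 fell with all 3 ligands (74.4%). SRSF1 rose from 121 ± 3.3 to 256 ± 9.0 CPM with all 3, and RBM47, an epithelial RNA-binding protein, fell from 29.5 ± 0.9 to 8.76 ± 0.57 CPM. The genes whose transcripts ESRP proteins splice were 14, of which 6 rose and 2 fell with TGFB alone (35.6%) and 8 rose and 4 fell with all 3 (74.4%). CD44 rose from 396 ± 11.3 to 1112 ± 58.8 CPM, and FGFR2 fell from 8.26 ± 0.29 to 4.39 ± 0.34 CPM with all 3 ligands but rose to 18.9 ± 0.8 CPM with TGFB alone. Gene-level counts do not show which splice forms were present. Of 7 intermediate filament genes related to VIM, 1 rose and 0 fell with TGFB alone (35.6%) and 4 rose and 1 fell with all 3 ligands (74.4%), among them LMNB1 from 5.96 ± 1.25 to 52.2 ± 10.4 CPM.

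Genes with the most similar course were found by Pearson correlation of mean log2 CPM over the 9 groups, as a description with no test. For SNAI1 they were USP43 (r = 0.99), UTRN (r = 0.99) and TNFRSF1A (r = 0.98), and for ZEB1 SLC30A7, SREK1IP1 and SURF4 (r = 0.99 or above). For CDH2 they were NTAN1, ZFP57 and MYADM (r = 0.99 each), and for CDH1 ROGDI (r = 0.99), KPNA7 and WIPI1 (r = 0.98 each). Courses close to that of a member were common for ZEB2, with 244 genes at r above 0.95, TWIST1 (241), ZEB1 (226) and VIM (218). They were rare for SNAI2 (3), ESRP2 (20) and CDH1 (26). By Spearman's rho 3 of the 30 genes named this way were again among the 3 most alike. Over 9 groups many genes tie in rho, and ties were cut in arbitrary order, so this count depends on that order. SLC30A7 for ZEB1 and PTPN6 for ZEB2, for example, had a rho of 1 but were not counted.

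In the annotation, exons of 8 of the 10 genes overlap those of a gene on the opposite strand, such as ZEB1-AS1, ZEB2-AS1, VIM-AS1 and, for ESRP2, NFATC3. The kit keeps strand, but whether the counting used it is not given in the sources used here, so a part of these counts may come from the antisense partner. Exons of ESRP2 also overlap those of 2 genes on its own strand, ENSG00000262160 and MIR6773, which strand would not tell apart.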

How the data were processed

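The deposited file is 1 table of gene-level counts for 27 libraries of polyA RNA (TruSeq Stranded mRNA), with 40487 entries, 7165 of them without a symbol. Per the submitters' processing notes the tools were Trim Galore 0.4.3, cutadapt 1.10, FastQC 0.11.5, kallisto 0.46.2 and R 3.5.0, and the builds GRCh38.p5 and hg38. kallisto gives estimated counts, and the deposited values are whole numbers; how the authors rounded them or summed transcripts to genes is not given in the sources used here.

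Entries of the same symbol were summed (1962 symbols had several), and 15575 genes passed edgeR's filterByExpr. edgeR 4.0.16 (R 4.3.3, limma 3.58.1) fitted its quasi-likelihood model with TMM scaling over all 9 groups, with Benjamini-Hochberg adjustment over all tested genes and calls at an adjusted p under 0.05. SE is the log2 fold change divided by the root of its F statistic. Adjusted p-values without another tool named are from this test, those without a library from the same test refitted. The common biological coefficient of variation was 7.83%. The fit was tested on simulated data. Alternatives were upper-quartile scaling, DESeq2 1.42.0, no filter, entries not summed and a replicate block. Others were a limit of at least 2-fold on the estimated change of called genes, and leaving out each library. The 3 differences of a ligand effect between backgrounds were added after the effects had been seen. Where both effects had already passed with opposite signs, the p-value of their difference, from the same libraries, adds no separate support.

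All 10 genes are named. From each list the rule names the called genes with the 3 highest and 3 lowest changes with TGFB and with all 3 ligands, and for each gene the 3 most alike in course. The genes and lists were chosen with earlier results of these data known. Annotation is GENCODE v44 on GRCh38 and promoter windows are from RefSeq on GRCh38.p14.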

Additional observations from a re-analysis of the deposited data

Results flagged for a closer look

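In 5 cases the effect of a ligand on 1 of the 10 genes had opposite signs in different backgrounds, and the difference itself passed edgeR's quasi-likelihood test. Cases were picked where both effects had passed with opposite signs, at the pair of backgrounds with the largest gap. The difference was tested on the same libraries, so passing was likely by construction and its p-value adds no separate support. SNAI1 fell by 2.04 on the log2 scale when EGF was added to OSM and rose by 3.38 when it was added to TGFB, a difference of 5.42 ± 0.22 (SE; adjusted p = 1.03e-15). SNAI2 changed with EGF by 0.17 with OSM and by -0.16 with TGFB, a difference of -0.33 ± 0.09 (adjusted p = 0.00542, edgeR). Each of these 2 SNAI2 effects was small and lost its call with 1 of several libraries left out, the first also with upper-quartile scaling (adjusted p = 0.074) and the second with no filter (adjusted p = 0.14). ZEB2 changed with OSM by -0.89 alone and by 0.57 with EGF+TGFB, a difference of 1.45 ± 0.18 (adjusted p = 3.22e-07, edgeR).

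The other two cases concern ZEB2 and CDH2. ZEB2 changed with TGFB by -0.40 alone and by 0.95 with EGF+OSM, a difference of 1.34 ± 0.18 (adjusted p = 1.84e-06, edgeR). CDH2 changed with OSM by 1.34 alone and by -0.80 with EGF, a difference of -2.14 ± 0.14 (adjusted p = 1.35e-11, edgeR). The first 4 differences were tested after the effects had been seen. With 3 libraries in a group, no library was tested as an outlier.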

How the results depend on the processing

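Counts of the 10 genes and of all genes called stayed within 1.5 times in all 24 comparisons with upper-quartile scaling, DESeq2, no filter, entries not summed and the replicate block. A rule that also asked for an estimated change of at least 2-fold lowered them. It limits the estimate and does not test against a 2-fold change. Of the 10 genes it called 5 with EGF (9 before), 5 with OSM (8), 2 with TGFB (8) and 5 with OSM+TGFB (10) against PBS, and 0 (4) for PBS against T0. TGFB added to EGF gave 3 (8), added to OSM 2 (7), and added to both 3 (9). On adding EGF it called 2 with OSM (8) and 0 with OSM+TGFB (7), and on adding OSM 1 with EGF (7), 4 with TGFB (8) and 1 with EGF+TGFB (6). Departures from the sum numbered 1 of EGF+TGFB (4), 0 of OSM+TGFB (3) and 3 of all ligands (5), and the differences of the EGF and OSM effects to 4 each (7 each).

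Over all genes, the 2-fold rule called 4287 with EGF (11446 before), 3138 with OSM (9868) and 903 with TGFB (5551). It called 5401 with EGF+OSM (12020), 4684 with EGF+TGFB (11475) and 3771 with OSM+TGFB (10278). With all ligands it called 4889 (11585), and for PBS against T0 860 (5470). TGFB added to EGF gave 1473 (8511), added to OSM 1424 (8042), and added to both 2338 (9517). On adding EGF it called 2256 with OSM (9613), 3660 with TGFB (10806) and 1739 with OSM+TGFB (8128), and on adding OSM 1248 with EGF (5430), 2570 with TGFB (8814) and 895 with EGF+TGFB (4108). Departures numbered 1603 (6032), 664 (4647), 721 (3629) and 3279 (7471) for EGF+OSM, EGF+TGFB, OSM+TGFB and all ligands, and differences of the EGF, OSM and TGFB effects 1618 (6063), 2240 (7395) and 1585 (6922). This rule asks for a larger change by construction.

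Signs turned only for changes that had not passed the test. With upper-quartile scaling these were ESRP2 with OSM (-0.013), SNAI2 with EGF (-0.064) and the SNAI2 departure with all ligands (0.043). With no filter they were ESRP2 in PBS against T0 (-0.0034), SNAI1 on adding EGF to OSM+TGFB (0.00072) and the same SNAI2 departure (0.023). The causes were not tested.

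Leaving out 1 library, the genes called of the 10 ranged from 5 to 8 for TGFB against PBS and from 2 to 5 for the EGF+TGFB departure. In PBS against T0, ESRP1 ranged from -0.10 to 0.038, ESRP2 from -0.072 to 0.059, SNAI1 from -0.0041 to 0.31 and ZEB2 from -0.19 to 0.049. Against PBS, ESRP2 ranged from -0.012 to 0.12 with OSM and from -0.12 to 0.0053 with EGF+TGFB, and SNAI2 from -0.033 to 0.032 with EGF. Departures ranged from -0.25 to 0.031 for CDH1 with EGF+OSM, -0.024 to 0.060 for ESRP1 and -0.014 to 0.098 for SNAI2 with OSM+TGFB, and -0.073 to 0.053 for SNAI2 and -0.23 to 0.087 for ZEB1 with all ligands. On adding EGF, CDH1 ranged from -0.26 to 0.0063 with TGFB and SNAI1 from -0.086 to 0.046 with OSM+TGFB, and SNAI2 on adding OSM to TGFB from -0.075 to 0.031.

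Adding 1 CPM in place of 0.1 moved the log2 ratio of CDH2 to CDH1 to -6.43 at T0 and -7.01 in PBS, and that of ZEB1 to ESRP1 to -5.38 at T0, -5.20 in PBS, -4.77 with TGFB and -2.88 with EGF+TGFB.

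Libraries with the same replicate number correlated in their deviations from the group means by 0.133 on average (108 pairs, -0.0479 to 0.374, 73 over 0.1), and those with different numbers by -0.0661 (216 pairs). Deviations cancel out within a group, so the value for different numbers follows largely from the other and is not a separate contrast. All 27 libraries correlated best with their own number, a hint from the data and not from the labels. With the replicate block, 202 changes of the 10 genes kept their side of the threshold, 11 more passed, 0 were lost and 1, ESRP2 in PBS against T0, turned sign (-0.0018). Those that passed were, against PBS, CDH1 with all ligands (-0.19, adjusted p = 0.028, edgeR) and with EGF+TGFB (0.18), and ZEB1 with TGFB (0.41). On adding OSM they were VIM with EGF (0.15, adjusted p = 0.019), ZEB2 with TGFB (-0.28), and ZEB1 (0.34) and ESRP2 (-0.25) with EGF+TGFB. The others were ESRP2 on adding EGF to OSM (0.17) and the departures of CDH1 with EGF+TGFB (0.37), ESRP2 with all ligands (-0.41) and ZEB2 with EGF+OSM (0.40). SNAI1 without ligand rests on 6 to 10 counts a library, which limits the precision of its folds.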
